A study of Drosophila melanogaster with 3 samples.

Results

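The genes described here code for the enzymes of glycolysis and for lactate dehydrogenase in whole larvae that lack cyclin C. They were chosen by name, 10 of the 17896 genes in the count table: *Hex-A*, *Pfk*, *Ald1*, *Tpi*, *Gapdh1*, *Gapdh2*, *Pgk*, *Eno*, *Pyk* and *Ldh*. The larvae were homozygous for *CycC* Y5 (cyccY5 in the labels), a null allele of the cyclin partner of the kinase CDK8, and were collected as wandering third-instar larvae. Total RNA was sequenced from 3 libraries of this genotype, each a pool of 10 larvae, so a library is a mean over animals and over all of their tissues. Libraries of w1118 control larvae and of *Cdk8* K185 larvae were not analysed here, so the values describe *CycC* Y5 larvae alone and no effect of the mutation is given. Nothing in the labels says that the pools came from separate cultures, so p-values apply to these libraries only. Those of the chi-square test set differences between libraries against counting noise and depend on the number of counts.

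Glycolysis splits glucose into pyruvate and yields ATP and NADH on the way. Lactate dehydrogenase turns pyruvate into lactate and thereby gives back the NAD that glyceraldehyde phosphate dehydrogenase needs, so sugar can be used quickly without oxygen uptake. Growing *Drosophila* larvae are known for strong expression of these genes, in body wall muscle among other tissues, and the nuclear receptor ERR is known to switch them on before larval growth.

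The deposited values are reads counted per gene. Libraries 1, 2 and 3 held 10222639, 10179342 and 12146443 counts over genes and transposons, and levels are given as CPM, counts per 1000000 of these totals. The mutated gene *CycC* (FBgn0004597) had 0 counts in each library, and a count of 0 allows up to 3 counts, or 0.293, 0.295 and 0.247 CPM. Library 3 stood apart from the others: its 20 most counted features took 25.3% of its counts, against 20.1% and 19.6% in libraries 1 and 2. With totals as library sizes, 9898 features with at least 10 counts in every library had a median log2 ratio of -0.26 between library 3 and the mean of libraries 1 and 2. With library sizes from edgeR's TMM method (a trimmed mean of log ratios) this median was -0.018. Ratios between libraries are therefore given on the TMM scale unless stated, and the levels, calls and proportions of the 10 genes are also given without library 3.

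Each of the 10 genes was counted in each library, and 9 of them were highest in library 3. In library 1 they took together 0.302% of all counts, with a 95% Wilson interval from 0.299% to 0.306%. The share was 0.333% (0.329% to 0.336%) for library 2 and 0.527% (0.522% to 0.531%) for library 3. These intervals cover counting error only. The combined level was 3872 ± 1216 CPM (SD, n = 3), and without library 3 it was 3175 CPM.

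The upper part of the pathway spends ATP to prime glucose. *Hex-A* (FBgn0001186, chromosome X of BDGP6 from 9585675 to 9589813, plus strand) codes for hexokinase, which traps glucose in the cell as its phosphate. It was counted at 197, 156 and 160 CPM in libraries 1, 2 and 3, a mean of 171 ± 22.4 CPM (SD, n = 3) and of 177 CPM without library 3. *Hex-A* was thus the exception among the 10 genes, with its highest value in library 1 and no separation of library 3. *Pfk* (FBgn0003071, chromosome 2R from 10109740 to 10117457, plus strand) codes for phosphofructokinase, the enzyme that commits sugar to glycolysis. It was at 113, 126 and 163 CPM, a mean of 134 ± 25.9 CPM (SD, n = 3) and of 119 CPM without library 3. Library 3 was the highest, and libraries 1 and 2 lay close together. *Ald1* (FBgn0000064, chromosome 3R from 26254069 to 26261591, minus strand) codes for aldolase, which cuts the primed sugar into a pair of trioses. It was the most counted of the 10 genes, at 627, 675 and 1180.0 CPM, a mean of 828 ± 306 CPM (SD, n = 3) and of 651 CPM without library 3. *Tpi* (FBgn0086355, chromosome 3R from 30132981 to 30134599, minus strand) codes for the isomerase that interconverts these trioses. It was at 176, 194 and 349 CPM, a mean of 240 ± 95.3 CPM (SD, n = 3) and of 185 CPM without library 3, and like *Ald1* it was high in library 3 alone.

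The lower part of the pathway earns ATP. *Gapdh1* (FBgn0001091, chromosome 2R from 7791901 to 7793380, minus strand) and *Gapdh2* (FBgn0001092, chromosome X from 15868145 to 15869661, plus strand) both code for the dehydrogenase that makes NADH from triose phosphate. *Gapdh1* was at 442, 501 and 879 CPM, a mean of 607 ± 237 CPM (SD, n = 3) and of 471 CPM without library 3. *Gapdh2* was at 462, 519 and 809 CPM, a mean of 597 ± 186 CPM (SD, n = 3) and of 490.4 CPM without library 3. The means of the pair differed by less than the SD of either. The genes are closely related, and whether reads were split between them by the counting was not tested. *Pgk* (FBgn0250906, chromosome 2L from 2746880 to 2753068, minus strand) codes for phosphoglycerate kinase, which makes ATP. It was at 195, 214 and 246 CPM, a mean of 218 ± 25.9 CPM (SD, n = 3) and of 205 CPM without library 3. Its relative spread was the smallest of the genes that were highest in library 3. *Eno* (FBgn0000579, chromosome 2L from 1724768 to 1729636, minus strand) codes for enolase, which makes phosphoenolpyruvate. It was at 435, 492 and 837 CPM, a mean of 588 ± 218 CPM (SD, n = 3) and of 464 CPM without library 3, close to the values of the *Gapdh* genes. *Pyk* (FBgn0267385, chromosome 3R from 22367536 to 22372746, plus strand) codes for pyruvate kinase, which makes pyruvate and ATP. It was at 345, 399 and 556 CPM, a mean of 433 ± 109 CPM (SD, n = 3) and of 372 CPM without library 3, which again lay above the others.

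*Ldh* (FBgn0001258, chromosome 3L from 6259105 to 6262694, minus strand, once called *ImpL3*) codes for lactate dehydrogenase and had the fewest counts of the 10 genes. It had 311, 521 and 1033 counts in libraries 1, 2 and 3, or 30.4, 51.2 and 85.0 CPM, a mean of 55.6 ± 27.6 CPM (SD, n = 3) and of 40.8 CPM without library 3. No libraries lay close together for this gene, unlike for the enzymes above it.

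**Figure D1:**
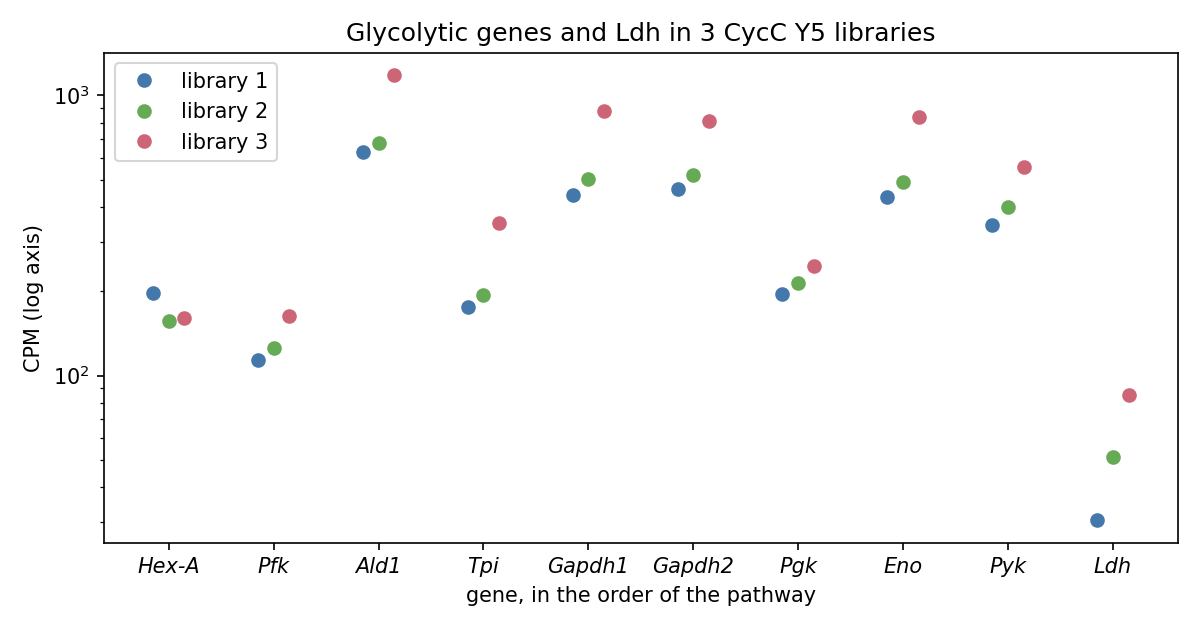
CPM of the 10 genes on a log axis, in the order of the pathway, with a dot for each of the 3 *CycC* Y5 libraries. Library 3 is the highest for 9 genes, and for *Hex-A* library 1 is, at 197 CPM.

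To ask whether these differences exceeded counting noise, the counts of each feature were set against the TMM library sizes in a chi-square test, with Benjamini-Hochberg adjustment over all 9898 features. This compares libraries and not conditions. All 10 genes varied (adjusted p of at most 1.7e-13, the value for *Hex-A*), where 39.8% of all features did and 67.3% of the 3326 features with a mean of at least 50 CPM. As the 10 genes are well counted, the latter share is the closer background. Of the 10 genes, 9 varied and were highest in library 3, against 17.8% of all features and 31.6% of those with at least 50 CPM. *Hex-A* was no longer called without library 2 (adjusted p = 0.24), and *Pfk* (0.19), *Tpi* (0.12) and *Pgk* (0.10) were not called without library 3.

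The size of the differences is given as a log2 ratio, library 3 against the mean of libraries 1 and 2. Over the 10 genes its median was 1.03, and over all 9898 features it was -0.018, with the 5th and 95th percentiles at -0.51 and 0.67. *Ldh* had the largest ratio of the 10 genes, 1.31 or 2.48-fold, which 98.9% of all features fell below. *Tpi* was at 1.16, *Gapdh1* at 1.14, *Ald1* and *Eno* at 1.10, *Gapdh2* at 0.97 and *Pyk* at 0.82. *Pfk* at 0.69 lay just above the 95th percentile and *Pgk* at 0.51 below it. *Hex-A* was at 0.10 on this scale. Its sign depended on the scaling, with -0.14 on total counts, while the other 9 genes stayed above 0 under all 5 scalings tried. On total counts the ratio of *Ldh* was 1.06 and the median over the 10 genes 0.79. The order of the genes thus put the priming kinases and *Pgk* low, and *Ldh* with the triose enzymes high.

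**Figure D2:**
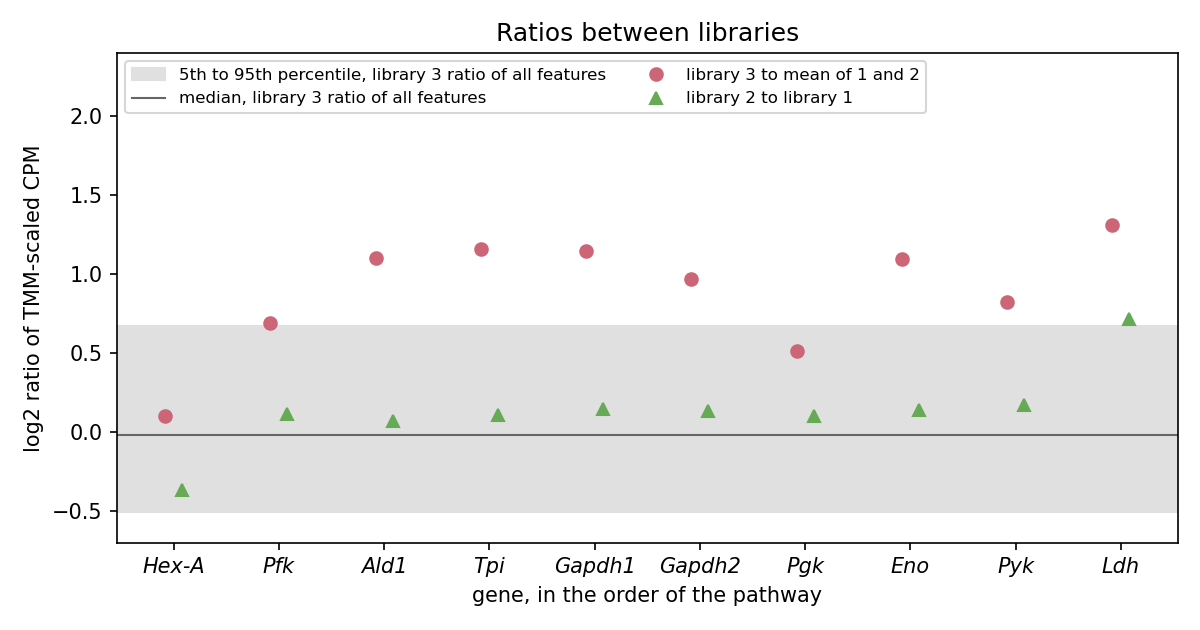
Log2 ratios of TMM-scaled CPM between libraries for each gene in the order of the pathway: circles are library 3 to the mean of libraries 1 and 2, triangles library 2 to library 1. The grey band spans the 5th to 95th percentile of the library 3 ratio over all features tested, from -0.51 to 0.67, and 8 of the 10 circles lie above it.

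Between libraries 1 and 2 the differences were small, with the exception of the genes at the ends of the pathway. The log2 ratio of library 2 to library 1 was between 0.070 and 0.17 for the 8 genes from *Pfk* to *Pyk*, where the median of all features was -0.0041. *Ldh* was at 0.71 (adjusted p = 1.1e-10, chi-square test over 9979 features with Benjamini-Hochberg adjustment). *Hex-A* was at -0.37 (adjusted p = 9.6e-13). *Ald1*, *Gapdh1*, *Gapdh2*, *Eno* and *Pyk* were also called in this comparison, so that 7 of the 10 genes were, against 16.5% of all features. Between libraries 3 and 2, without library 1, *Ldh* had a log2 ratio of 0.99, below *Tpi* (1.11), *Ald1* and *Gapdh1* (1.07) and *Eno* (1.03), so its first place in the ratio of library 3 to the others rested on library 1. Against library 3, 9 of the 10 genes were called in library 1 (all but *Hex-A*), where 32.3% of all features were, and all 10 in library 2, where 29.5% were. For these pairs of libraries no share was taken among well-counted features, the closer background. How far the number of counts adds to the excess over all features was not tested.

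The biological coefficient of variation from edgeR, the spread between libraries beyond counting noise, was highest for *Ldh* and lowest for *Hex-A* over the 3 libraries, but both places changed when a library was left out. It was 0.384 for *Ldh*, between 0.291 and 0.331 for *Ald1*, *Tpi*, *Gapdh1*, *Gapdh2* and *Eno*, 0.261 for *Pyk*, 0.224 for *Pfk*, 0.194 for *Pgk* and 0.163 for *Hex-A*. The median over all features was 0.142 and the 95th percentile 0.262. Without library 1 the coefficient of *Ldh* was 0.275, below those of *Ald1* (0.323), *Gapdh1*, *Tpi*, *Eno* and *Gapdh2* (0.293). Without library 3 *Ldh* was at 0.175 and *Hex-A* next at 0.133, above the other 8 genes, of which *Pfk* was lowest at 0.0995. The common value over all features also fell without library 3, from 0.171 to 0.121. With DESeq2 in place of edgeR, over the 3 libraries, the coefficient of *Ldh* was larger, at 0.572. Those of the others then lay between 0.142 (*Hex-A*) and 0.292 (*Tpi*), and the median over all features was 0.152.

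Although the levels differed between libraries, the proportions of some enzymes to each other hardly did. *Ald1*, *Tpi*, *Gapdh1*, *Gapdh2* and *Eno*, a set picked after its values were seen and so given without a test, form 10 pairs. The SD of their log2 ratios over the 3 libraries lay between 0.023 and 0.11. For *Tpi* to *Gapdh1* it was 0.023, the smallest of all. Over all 45 pairs of the 10 genes the median SD was 0.26 and the highest 0.90, for *Hex-A* to *Ldh*. Without library 3, the log2 ratios of the 10 pairs differed by at most 0.077 between libraries 1 and 2, and the median difference over all 45 pairs was 0.061. These ratios come from counts within a library and need no library size.

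Levels of different genes can be compared per length, and were set per kb of merged exons in the BDGP6.54 annotation. The order was *Gapdh2* at 414 ± 129, *Gapdh1* at 410.3 ± 160.2, *Ald1* at 217 ± 80.4, *Pyk* at 193 ± 48.8, *Eno* at 158 ± 58.5, *Tpi* at 154 ± 61.1, *Pgk* at 103 ± 12.3, *Hex-A* at 41.4 ± 5.42, *Pfk* at 30.6 ± 5.91 and *Ldh* at 28.6 ± 14.2 CPM per kb (SD, n = 3). Enzymes of the triose part of glycolysis thus stood above the kinases that prime glucose, and *Ldh* stood last. Without library 3 the order was the same, with *Gapdh2* first at 339.8 CPM per kb and *Ldh* last at 21.01 CPM per kb. Neighbours in this order were compared within libraries by a two-sided exact sign-flip permutation test, which with 3 libraries cannot go below p = 0.25. *Gapdh2* and *Gapdh1* were not separated, with a mean log2 ratio of 0.035 ± 0.10 (SD, n = 3) and *Gapdh2* higher in 2 of 3 libraries (exact p = 0.50). Neither were *Ald1* and *Pyk* (0.14 ± 0.17, higher in 2 of 3 libraries, exact p = 0.50), nor *Pfk* and *Ldh* (0.20 ± 0.48, higher in 2 of 3 libraries, exact p = 0.75). *Eno* exceeded *Tpi* in each library but by 0.049 ± 0.040 only (exact p = 0.25). The widest gap between neighbours was that of *Pgk* to *Hex-A*, a log2 ratio of 1.32 ± 0.33 (SD, n = 3, exact p = 0.25). After Benjamini-Hochberg adjustment over 15 pairs no exact p was under 0.31.

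**Figure D3:**
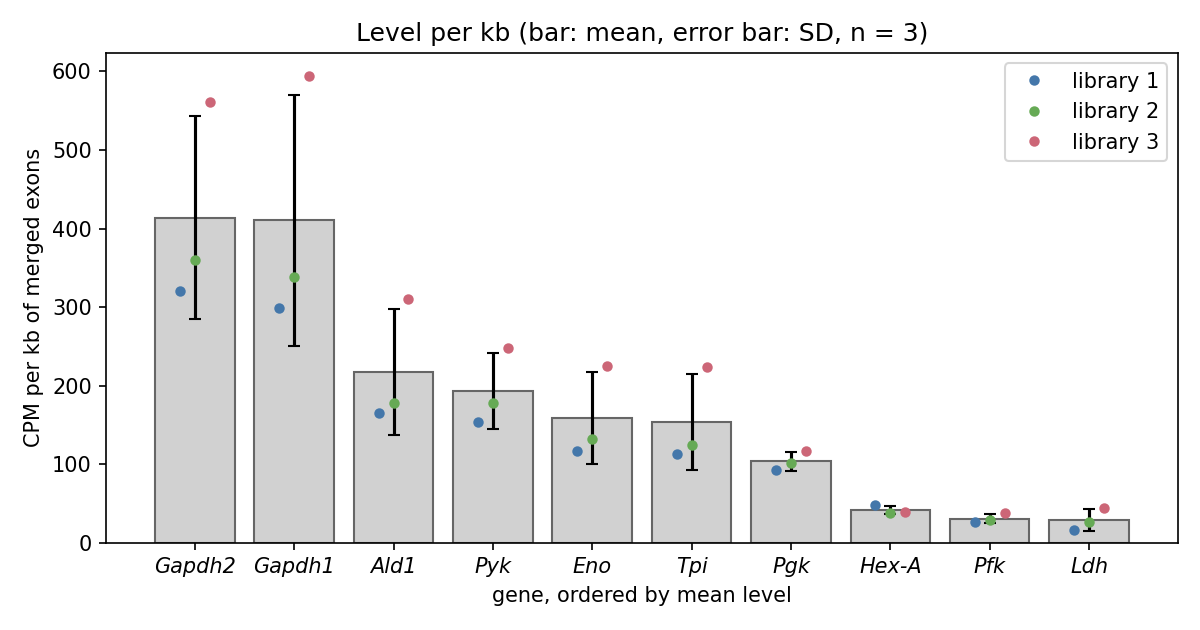
CPM per kb of merged exons for the 10 genes, ordered by the mean (bar), with the SD over 3 libraries (error bar) and each library as a dot. The *Gapdh* genes stand highest, at 414 and 410.3 CPM per kb, and *Ldh* last, at 28.6 CPM per kb.

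The order depends on the length used, since the listed length of each gene is its whole span with introns. *Hex-A*, *Pfk*, *Tpi*, *Gapdh1*, *Gapdh2*, *Pyk* and *Ldh* share no base with another gene. *Ald1* shares 8.16% of its span with *asRNA:CR44321*, *Pgk* 11.1% with *Bacc* and *Cwc25*, and *Eno* 18.6% with *Rrp40*. Of 3520 genes nested wholly within a larger gene, 3518 had no counts at all, so a 0 at a nested gene does not measure its expression. The levels of the 3 genes with shared bases are uncertain for the same reason. Leaving shared exon bases out of the lengths, an alternative chosen after seeing the data, changed the direction of none of the 15 ratios.

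Isozymes and branch points were compared in the same way. *Ald1* exceeded its paralog *Ald2* by a log2 ratio per kb of 5.62 ± 0.78 (SD, n = 3), *Pgk* exceeded *CG9961* by 4.87 ± 0.31, and *Pglym78*, which codes for phosphoglycerate mutase, exceeded *Pglym87* by 3.84 ± 0.72. Each of these held in 3 of 3 libraries (exact p = 0.25, adjusted p = 0.31). The minor paralogs had between 42 and 111 counts and *Ald2*, *CG9961* and *Pglym87* were not called as varying. *Ldh* competes with glycerol phosphate dehydrogenase (*Gpdh1*) for NADH and with pyruvate dehydrogenase (*Pdha*, its alpha subunit) for pyruvate. It was lower than *Gpdh1* by a log2 ratio of -1.18 ± 0.42 (SD, n = 3), with -1.61, -1.15 and -0.78 in libraries 1, 2 and 3 and a mean of -1.38 without library 3. *Gpdh1* shares 14.1% of its span with other genes, and with shared exon bases left out of the lengths this mean was -1.571. *Ldh* was lower than *Pdha* by -0.72 ± 0.66 (SD, n = 3), with -1.37, -0.73 and -0.051 and a mean of -1.05 without library 3. In library 3 *Ldh* and *Pdha* thus lay at about the same level per kb. *Pfk* was lower than *fbp*, which codes for the opposing bisphosphatase, by -1.57 ± 0.21 (SD, n = 3), in 3 of 3 libraries (exact p = 0.25). *Hex-C* and *Pepck1* lie inside other genes and were listed at 0, so *Hex-A* to *Hex-C* and *Pyk* to *Pepck1* were not compared.

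The remaining genes of sugar use were read from lists. Of 14 other glycolytic genes and paralogs, 11 could be tested and 4 varied, or 36.4%, near the 39.8% of all features. *Pgi*, the isomerase between hexokinase and phosphofructokinase, was at 197, 212 and 390.0 CPM, and *Pglym78* at 112, 117 and 192 CPM. Their log2 ratios of library 3 to the others were 1.17 and 0.99, within the range of the 10 genes, and they were the only genes of this list that varied and were highest in library 3. *Hex-t2* and *CG7069*, named here after their values were seen, varied and were highest in library 2. The other 7, all with at most 130 counts in any library, did not pass the test, among them *CG7059*, a mutase paralog, at 12.7, 12.4 and 9.39 CPM. *Hex-C*, *CG7362* and *CG12229* lie inside other genes and were listed at 0.

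Of 10 genes of sugar supply and storage, 9 could be tested, all varied, and 8 were highest in library 3 (on the TMM scale, as in all lists here), where 17.8% of all features and 31.6% of those with at least 50 CPM varied and were highest in library 3. Without library 3, 5 of the 9 were called, against 16.5% of all features. Library 3 exceeded the others by a median log2 ratio of 0.67. *GlyP*, which breaks down glycogen, was at 376, 439 and 700.5 CPM, a log2 ratio of 1.03. *Tps1*, which makes trehalose, was at 143, 130.4 and 217 CPM (0.91), and *Treh*, which splits it, at 343, 301 and 343 CPM (0.34). Library 3 was thus the highest for storage enzymes as well. *Glut1*, a glucose transporter named after its values were seen, was the exception, at 48.9, 65.4 and 37.3 CPM. *Tret1-1* lies inside another gene and was listed at 0.

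Of 15 genes for the fates of pyruvate and for side branches, 13 could be tested, and all 13 varied and were highest in library 3, against the same 17.8% and 31.6%. Without library 3, 6 of the 13 were called, against 16.5% of all features. The median log2 ratio was 0.44, below that of the 10 genes. The most counted were *Pcb*, pyruvate carboxylase, at 484, 438 and 478 CPM (log2 ratio 0.30), *Pdk*, which inhibits pyruvate dehydrogenase, at 254, 249 and 250.4 CPM (0.24), and *Pepck2* at 231, 228 and 255 CPM (0.40). In CPM, without the TMM scaling, *Pcb* and *Pdk* were thus not highest in library 3. On total counts the median of this list was 0.19, where that of all features was -0.26. *Gpdh1*, at 151, 184 and 236 CPM, had the largest ratio of the list (0.74). *Pepck1* and *Pfrx* lie inside other genes and were listed at 0.

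Regulators known to act on glycolytic genes formed another list. Of 10, 9 could be tested and 7 varied, where 39.8% of all features did and 67.3% of those with at least 50 CPM. Of the 7, 5 were highest in library 1 and 1 in library 3. Of all 9898 features, 1208 varied and were highest in library 1, and 17.8% varied and were highest in library 3. Their median log2 ratio for library 3 against the others was -0.11, where that of all features was -0.018. On the TMM scale *sima*, the hypoxia-inducible factor, was at 184, 167 and 163 CPM, *Mondo*, a sugar sensor, at 123, 110.0 and 119 CPM and *foxo*, which insulin signalling holds in check, at 128, 102 and 109 CPM. Library 1 was thus the highest for each, and library 2 the lowest for *Mondo* and *foxo*. *ERR* had 95, 86 and 84 counts and did not pass the test (adjusted p = 0.71), and it shares 42.1% of its span with other genes. *Myc* lies inside another gene and was listed at 0.

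Markers of muscle and fat body were also highest in library 3 on the TMM scale. All 10 muscle markers varied and were highest in library 3, where 17.8% of all features and 31.6% of those with at least 50 CPM were, with summed levels of 6016, 6891 and 11753 CPM in libraries 1, 2 and 3 and a median log2 ratio of 0.87 to the others. *Act57B*, a muscle actin, was at 1832, 1929 and 2993 CPM, and *Mlc2*, a myosin light chain, at 736, 1111 and 2463 CPM. All 6 larval serum and fat body genes varied and were highest in library 3, with sums of 30478, 26299 and 59527 CPM and a median ratio of 1.28. *Lsp1beta* was at 12162, 11710.1 and 23101 CPM and *Fbp1* at 12193, 10002 and 16218 CPM. In CPM, without the TMM scaling, 3 markers named after their values were seen were not highest in library 3. *Lsp2*, with 84.6% of its span shared, was at 950, 797 and 902 CPM, *TpnC73F* at 305, 283 and 280 CPM and *Act87E* at 313, 349 and 338 CPM. None of the muscle and fat body markers was at 0, and the part of muscle and fat body in the higher glycolytic counts was not tested. In such whole larvae, fewer cells of a type and less RNA per cell cannot be told apart.

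Markers of other tissues gave lower medians. For 7 neuron markers the sums were 220, 218 and 246 CPM, and the median log2 ratio of the 6 tested was -0.26. *Syt1* was at 131, 130.3 and 185 CPM, *nSyb* at 24.7, 26.1 and 18.4 CPM, and the defining gene *elav* had 1, 0 and 1 counts with 98.6% of its span shared with other genes. For 8 testis markers the sums were 187, 268 and 174 CPM and the median of the 6 tested -0.12. *betaTub85D* was at 65.2, 107 and 66.8 CPM and *Mst98Ca* at 33.9, 49.5 and 28.1 CPM. *Mst84Da*, with 78.5% of its span shared with other genes, and *fzo*, which lies inside another gene, were listed at 0. For 7 midgut markers the sums were 12662, 11247 and 11679 CPM and the median 0.27. Of the 7, 4 varied and were highest in library 3, where 17.8% of all features and 31.6% of those with at least 50 CPM were. *Jon65Aiii* was at 5955, 5356 and 5775 CPM and *alphaTry* at 2878, 2498 and 1847 CPM. The midgut genes differed, as seen in others named after their values were seen. Log2 ratios of library 3 to the others were 0.98 for *Mal-A1*, 0.79 for *Amy-p* and 0.67 for *Jon99Ci*, within the range of the muscle markers. They were -0.18 for *betaTry*, -0.30 for *alphaTry* and -0.82 for *lambdaTry*. For 7 glue genes of the salivary gland the sums were 8213, 4293 and 5377 CPM, lowest in library 2, with *Sgs3* at 3748, 1599 and 1991 CPM and *Eig71Ee* at 1778, 1465 and 1388 CPM. *Sgs4* lies inside another gene and was listed at 0.

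**Figure D4:**
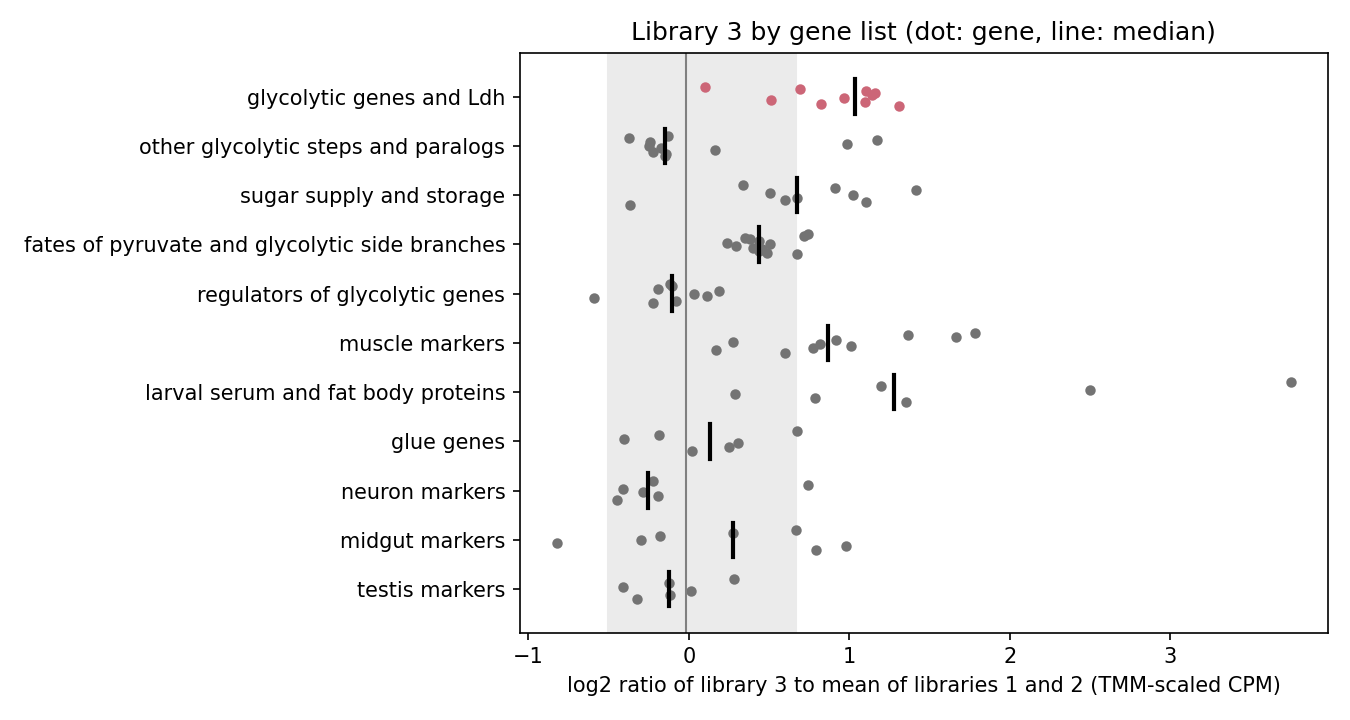
Log2 ratio between library 3 and the mean of libraries 1 and 2 (TMM-scaled CPM) for each tested gene of each list, with the list median as a black line and the 5th to 95th percentile of all features as a grey band. The medians of the 10 genes (1.03), the muscle markers (0.87), the serum and fat body genes (1.28) and the sugar supply genes (0.67) are the highest.

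The genes most like *Ldh* over the 3 libraries were sought among 3325 features with a mean of at least 50 CPM, by the Euclidean distance between log2 deviations from the mean of the libraries. They were *CG9757* (2767, 4256 and 8336 counts, distance 0.11), *Pebp1* (952, 1840 and 3315 counts, 0.15) and *AttB*, an antimicrobial peptide gene (379, 570 and 1029 counts, 0.21). Of the other 9 genes *Gapdh1* was nearest to *Ldh*, at 0.44 with 26 features closer, and *Hex-A* farthest, at 1.27 with 1965 closer. With 3 libraries of 1 genotype this likeness is a description of these libraries.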

How the data were processed

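RNA-seq libraries were made from 3 pools of *CycC* Y5 larvae. What the authors deposited are raw read counts, as whole numbers, for genes and for transposon families. Reads were aligned with STAR to dm6 per the submitters' processing notes. The counting program, its strand setting and its treatment of reads with several matches are not given in the sources used here. Columns were assigned by genotype initial and number. Names in the transposon table stand 1 cell left of their values. The tables hold 11 further columns for other libraries, which were not used.

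Coordinates of 99.8% of 17819 genes on named chromosomes equal those of BDGP6.54, which also gave exon lengths. *Pyk*, *GlyP*, *GlyS* and *Pcb* were among the genes matched through other names. CPM values used the total of both tables. A chi-square test against TMM library sizes covered features with at least 10 counts in every library (Benjamini-Hochberg, threshold 0.05). As there is 1 genotype, no quasi-likelihood test was run. An intercept-only fit in edgeR 4.0.16 gave coefficients of variation, with DESeq2 1.42.0 as an alternative (R 4.3.3). Remaining steps ran in Python 3.11.15 with pandas 2.3.3, NumPy 2.4.6, SciPy 1.17.1 and matplotlib 3.10.9. The steps were tested on simulated data.

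The members and lists were chosen with earlier results of these data known. Named beside the 10 genes were those in a compared pair, the 3 most counted of each pathway list, the 2 most counted of each marker list, each pathway gene listed at 0, and the 3 features most like *Ldh*. The alternatives were other library scalings, filters, a threshold of 0.01, other lengths, a pseudocount of 1 and each library left out. The search for promoter motifs was not run.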

Additional observations from a re-analysis of the deposited data

How the results depend on the processing

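No paired analysis was possible because there is only 1 group. The alternatives changed no call of the 10 genes apart from the 4 lost when a library was left out: *Hex-A* without library 2 (adjusted p = 0.24), and *Pfk* (0.19), *Tpi* (0.12) and *Pgk* (0.10) without library 3. With 1 library left out at a time, 7 to 10 of the 10 genes varied, against 16.5% (without library 3) to 32.3% (without library 2) of all features. The number of all features that varied, 3943, was 5950 with total counts, which carry the general offset of library 3, and between 1650 (without library 3) and 3217 with 1 library left out. These alternatives for all features were chosen after seeing the data. The combined level was between 3175 and 4296 CPM with 1 library left out, and 4969 CPM on the total without the 20 most counted features. The smaller total without the 20 most counted features moved 4 levels of single genes by over 1 SD, and 9 coefficients of variation fell by over 1.5 times without library 3.

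The log2 ratios per kb that reversed were those of *Gapdh2* to *Gapdh1* (-0.037 per listed length, -0.0015 on counts alone), *Gapdh1* to *Ald1* (-0.45 on counts alone), *Pyk* to *Eno* (-0.51 per listed length, -0.41 on counts alone), *Eno* to *Tpi* (-0.28) and *Pgk* to *Hex-A* (-0.23) per listed length, *Pfk* to *fbp* (0.30 on counts alone) and *Pfk* to *Ldh* (-0.056 without library 1, against up to 0.42 without library 3). By construction the length sets these shifts, except that of *Pfk* to *Ldh*, whose cause was not tested. The median ratio of library 3 to the others reversed for the glue genes (-0.11 on total counts, -0.20 without library 2, 0.80 without library 1), the other glycolytic genes and paralogs (0.090 without library 2, -0.32 without library 1) and the testis markers (0.092 without library 2, -0.39 without library 1), and the cause was not tested. That of the 10 genes was between 0.79 and 1.09 under all alternatives.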
